A study of Mus musculus with 4 samples.

Results

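Aminoacyl-tRNA synthetases are the enzymes that load each tRNA with its amino acid. Here 37 mouse genes that encode such enzymes were followed through an RNA immunoprecipitation of Lin28b. The genes were chosen by name: a one-letter amino acid code followed by ars, with or without a final 1 or 2, together with Eprs, Farsa and Farsb, among protein-coding genes listed in both deposited gene tables. All 37 were measured in both tables, of 13478 genes shared by the tables and 11260 shared protein-coding genes. Of these, 20 encode cytosolic enzymes and 17, whose symbols end in 2, encode mitochondrial enzymes. Kars and Gars each give rise to both a cytosolic and a mitochondrial enzyme and were counted as cytosolic.

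The study asked which RNAs Lin28b binds in a mouse line, 15376CAFs, that the labels place among pancreatic CAFs, the fibroblasts of a tumour. The cells overexpressed Flag-tagged Lin28b, either wild type (Lin28b-WT) or a mutant deficient in RNA binding (Lin28b-MU). RNA recovered with an anti-Flag antibody (the IP) and RNA of the lysate (the input) were sequenced for each construct. That gave 4 libraries in 4 groups of 1: WT IP, WT input, MU IP and MU input. Each group being a single library, no difference could be tested against replicate error, and every value describes 1 library or the ratio of a pair. The protein was overexpressed in every group. Cells without the construct were not analysed here, and the labels do not say whether a line was 1 clone.

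The cytosol has synthetases for all amino acids of proteins, while mitochondria import a separate set of enzymes encoded in the nucleus. The enzymes fall into class I and class II, which have unrelated catalytic folds. Part of the cytosolic enzymes are held together by scaffold proteins in the multisynthetase complex, and many cytosolic synthetase genes are known targets of ATF4, the transcription factor of the amino acid and unfolded protein responses. Lin28b binds let-7 precursors and many mRNAs, and its zinc knuckles are known to contact GGAG-like stretches of RNA.

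The cells expressed only part of the fibroblast marker list. Of 14 fibroblast markers 6 were in both tables, and Vim, Fn1 and Sparc were the 3 at or above 1 FPKM in both inputs. The summed input level of the 6 was 820 FPKM with the wild type and 708 FPKM with the mutant. Col1a1, a defining fibrillar collagen, stood at 0.722 and 0.404 FPKM. Of 12 epithelial markers 8 were in both tables and all 8 reached 1 FPKM, with summed levels of 2097 and 1424 FPKM. The cell type is therefore called by its label here. The levels carry no named unit in the files and were read as FPKM, fragments scaled for transcript length and library size, and the tables of the constructs were normalised separately. The depth behind each level is unknown, because the files hold no read totals.

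The cytosolic synthetases were expressed above most genes, at 18.3 to 103 FPKM in the WT input and 27.1 to 153 FPKM in the MU input, where the protein-coding medians were 11.4 and 11.7 FPKM. They stood higher in the input of the mutant-expressing cells than in that of the wild-type-expressing cells. This held for 19 of 20 cytosolic enzymes, against 53.2% of protein-coding genes. The cytosolic median was 1.66-fold, and 12 of these enzymes were at least 1.5-fold higher. The background over protein-coding genes was 16% past 1.5-fold toward the mutant input and 13.9% toward the wild-type input. Among the 5573 protein-coding genes with at least 10 FPKM in both inputs, the mutant share was 8.24%. No cytosolic synthetase was 1.5-fold higher in the wild-type input. At a 2-fold difference the mutant input was higher for 2 of the 20, against 7.1% of protein-coding genes, and the wild-type input for none, against 7.16%. The levels being compared come from separately normalised tables of 1 library each, and in bulk RNA a change in the mix of cells and a change per cell cannot be told apart. The summed fibroblast and epithelial marker levels were both lower in the mutant input, and their part in the difference was not tested.

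Nars, which charges asparagine, had the highest ratio between the inputs, at 50.9 FPKM with the wild type and 122 FPKM with the mutant, or 2.41-fold. Farsb, the beta subunit of the phenylalanine enzyme, stood at 18.6 and 39.7 FPKM, or 2.13-fold. Its partner subunit Farsa stood at 26.5 and 31.2 FPKM, or 1.18-fold, so the subunits of this enzyme did not shift alike. Lars, the leucine enzyme, was at 26.9 and 52.3 FPKM, or 1.94-fold. Cars, the cysteine enzyme, was at 19.9 and 38.1 FPKM, or 1.91-fold. Gars, the glycine enzyme, had the highest cytosolic level of the mutant input, at 90.3 FPKM with the wild type and 153 FPKM with the mutant. Kars, the lysine enzyme, was the highest in the wild-type input and close between inputs, at 103 and 115 FPKM. The exception in direction was Qars, the glutamine enzyme, at 41.5 FPKM with the wild type and 29.2 FPKM with the mutant. It alone stood on the other side, at 0.703 of its wild-type level.

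The mitochondrial enzymes did not show this shift to the same extent. Their inputs were higher with the mutant in 10 of 17 genes, against 53.2% of protein-coding genes. The median was 1.29-fold, against 1.03-fold over protein-coding genes. Past 1.5-fold were 2 of 17, Mars2 and Pars2, against 16% of protein-coding genes, so these counts lie near the background. Mars2, the mitochondrial methionine enzyme, was the lowest of all members in the wild-type input, at 0.939 FPKM against 1.62 FPKM in the mutant input. Pars2, the mitochondrial proline enzyme, was at 2.12 and 3.28 FPKM. Mitochondrial synthetases were the lower ones: 7 of 17 lay under 5 FPKM in both inputs, and none of the cytosolic ones did. Tars2, the mitochondrial threonine enzyme, and Iars2, the mitochondrial isoleucine enzyme, had the highest mitochondrial levels, at 23.0 and 20.4 FPKM with the wild type and 31.1 and 27.8 FPKM with the mutant.

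**Figure D1:**
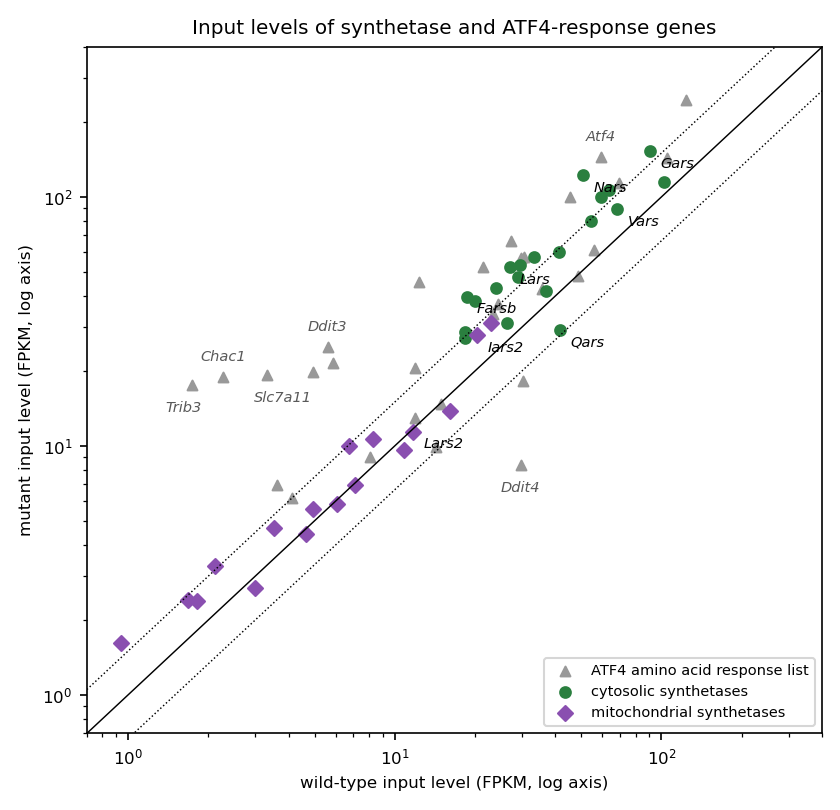
Level of each gene in the wild-type input (x axis, FPKM, log scale) and in the mutant input (y axis, FPKM, log scale), 1 library each, for 20 cytosolic synthetases, 17 mitochondrial synthetases and the measured genes of the ATF4 list. The solid line is equality and the dotted lines are 1.5-fold; 12 cytosolic synthetases lie on or above the upper dotted line and only Qars lies below equality.

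Other genes of the ATF4 amino acid response differed in the same direction between the inputs. Of 31 listed genes 30 were measured, and 25 were higher in the mutant input, against 53.2% of protein-coding genes. The median log2 ratio of mutant over wild type was 0.85, against 0.73 for cytosolic synthetases and 0.04 for protein-coding genes. Past 1.5-fold toward the mutant input were 18 of the 30, with 11 past 2-fold, against 16% and 7.1% of protein-coding genes. Toward the wild-type input the counts were 2 and 1, against 13.9% and 7.16%. The genes named next were picked for their input values. Trib3, a pseudokinase induced by ATF4, was at 1.74 FPKM with the wild type and 17.5 FPKM with the mutant. Chac1, a glutathione-degrading enzyme, was at 2.28 and 18.9 FPKM, and Ddit3, which encodes CHOP, was at 5.61 and 24.9 FPKM. Atf4 itself was at 59.2 and 144 FPKM, and Asns, which makes asparagine, at 45.4 and 99.6 FPKM. The exception past 2-fold was Ddit4, an inhibitor of mTORC1, at 29.7 and 8.38 FPKM. Lin28b was at 13.8 FPKM in the WT input and 30.01 FPKM in the MU input, so the Lin28b gene also differed between the inputs, and its part in these differences was not tested. The gene level does not separate the construct from the cell's own Lin28b.

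Promoter sequences were read for the motif of ATF4, the composite element TGATGNAA, because the inputs of cytosolic synthetases and of ATF4-response genes differed in the same direction. RefSeq windows from 250 bases before to 50 after each gene's start (GRCm38.p6) were found for 27 of 37 members. Those not matched included Cars, Hars, Hars2, Lars, Nars, Pars2, Rars, Vars and Wars. The element, searched on both strands, lay in the windows of 5 of 27 member genes (18.5%), against 4.51% of all 27025 genes with a window (3.97% of 32851 windows). All 5 were cytosolic members (5 of 13 matched) and none of the 14 matched mitochondrial members held it. A stretch that holds it is printed for each of these genes, 5′ to 3′ on the gene's strand, with the element in capitals. In Aars, Gars, Iars and Tars it stands as the reverse complement, and in Yars as spelled above. The Aars (alanine) stretch lies at chr8:111033840-111033869 on the plus strand. Gars lies at chr6:55037901-55038000 on the plus strand, Iars (isoleucine) at chr13:49682126-49682155 on the plus strand, Tars (threonine) at chr15:11399655-11399684 on the minus strand and Yars (tyrosine) at chr4:129189895-129189924 on the plus strand.
Aars: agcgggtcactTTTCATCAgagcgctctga
Gars: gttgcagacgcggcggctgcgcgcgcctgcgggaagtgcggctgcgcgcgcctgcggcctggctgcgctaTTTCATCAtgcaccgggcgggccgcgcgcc
Iars: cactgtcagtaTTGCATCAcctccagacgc
Tars: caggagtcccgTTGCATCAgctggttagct
Yars: acgagctcagcTGATGCAAcccgacgggac

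These 5 genes were all higher in the mutant input, by 1.45-fold for Aars, 1.69-fold for Gars, 1.72-fold for Iars, 1.14-fold for Tars and 1.48-fold for Yars. Farsb, whose window lacks the element, was farther apart between the inputs than any of them. A match is a stretch of letters and not a measured site, and its absence says only that the letters are not in this window. The E-box CACGTG, bound by MYC and related factors, was in the windows of 5 of 27 member genes (Aars, Ears2, Farsb, Iars and Tars), against 8.09% of all genes with a window.

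With wild-type Lin28b most synthetase mRNAs were recovered close to their input level. The ratio of IP over input lay within 2-fold for 32 of 37 genes, and the median log2 ratio was -0.02, against -0.25 for protein-coding genes. Of the 37, 2 were at least 2-fold above input (6.85% of protein-coding genes) and 3 were at least 2-fold below (18.8%). There were 18 members above input (48.6%, against 38.8% of protein-coding genes), and 22 lay above the median of protein-coding genes. Lars2, the mitochondrial leucine enzyme, was at 27.8 FPKM in the IP and 11.7 FPKM in the input, or 2.37-fold. Dars, the cytosolic aspartate enzyme of the multisynthetase complex, was at 65.1 and 29.0 FPKM, or 2.24-fold. These were the members enriched with the wild type. Next in order were Pars2, with 3.53 FPKM in the IP and 2.12 FPKM in the input, Tars2, with 37.4 and 23.0 FPKM, and Rars2, the mitochondrial arginine enzyme, with 17.2 and 10.9 FPKM. Their log2 ratios were 0.73, 0.70 and 0.67, so mitochondrial enzymes took 4 of the 5 highest places.

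Mitochondrial enzymes also stood at the low end. Ears2, which charges mitochondrial tRNA with glutamate, was at 0.551 FPKM in the WT IP and 1.67 FPKM in the input, or 3.001-fold lower. Sars2, the mitochondrial serine enzyme, was at 1.51 and 3.53 FPKM, or 2.33-fold lower. Both are low genes, and with depth unknown the error of these ratios is unknown. Wars, the cytosolic tryptophan enzyme, known to be induced by interferon, was at 8.18 and 18.3 FPKM, or 2.23-fold lower. As deposited the mitochondrial ratios ran from -1.59 to 1.25 on the log2 scale and the cytosolic ones from -1.16 to 1.17, with medians of -0.05 and 0.04. The wider mitochondrial range did not hold with a pseudocount of 1. It then ran from -0.85 (Sars2) to 1.18 (Lars2), and the cytosolic range from -1.07 (Wars) to 1.14 (Dars).

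With the RNA-binding-deficient mutant the synthetases were again centred on their input while most genes lay below it. The median log2 ratio was -0.06, against -0.50 for protein-coding genes, and 29 of 37 members lay above the protein-coding median. The median over all genes in both tables was -0.28 with the wild type and -0.59 with the mutant, and relative to it the synthetase medians became 0.26 and 0.54. As deposited, 1 member was at least 2-fold above input (5.71% of protein-coding genes), 2 were at least 2-fold below (32.5%) and 34 lay in between. The enriched one was again Lars2, at 35.2 FPKM in the MU IP and 11.4 FPKM in the MU input, or 3.09-fold, so its enrichment was found with both constructs. Yars was just under the threshold, at 53.9 and 27.1 FPKM, or 1.99-fold. Lars, at 83.4 and 52.3 FPKM, and Eprs, the fused glutamate and proline enzyme, at 156 and 99.4 FPKM, followed with log2 ratios of 0.67 and 0.65.

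The genes below input with the mutant were Cars2 and Wars. Cars2, the mitochondrial cysteine enzyme, was at 1.82 FPKM in the MU IP and 4.42 FPKM in the MU input, or 2.42-fold lower. Wars was at 13.5 and 28.6 FPKM, or 2.11-fold lower, and was the member at least 2-fold below input with both constructs. Just above the threshold lay Farsa and Kars, with log2 ratios of -0.97 each. Relative to the median of all genes no member was 2-fold lower with the mutant. On that scale 10 were 2-fold higher, Eprs, Lars and Yars among them, while Ears2 was the 1 member still 2-fold lower with the wild type. The shares of protein-coding genes past 2-fold on that scale were not counted, so these counts have no background. Among members not yet described, Sars, the serine enzyme, was at 45.6 FPKM in the IP and 63.7 FPKM in the input with the wild type, and at 55.0 and 106 FPKM with the mutant. Its log2 ratios were -0.48 and -0.95. Aars2, the mitochondrial alanine enzyme, was at -0.86 and 0.10, and Hars2, the mitochondrial histidine enzyme, at -0.49 and -0.25. Fars2, Nars2, Yars2, Vars2 and Mars2, the mitochondrial phenylalanine, asparagine, tyrosine, valine and methionine enzymes, lay between -0.33 and 0.42 with the wild type and between -0.46 and 0.55 with the mutant. None of these passed 2-fold with either construct. The mutant ratios ran from -1.08 to 0.99 in cytosolic enzymes and from -1.27 to 1.63 in mitochondrial ones.

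**Figure D2:**
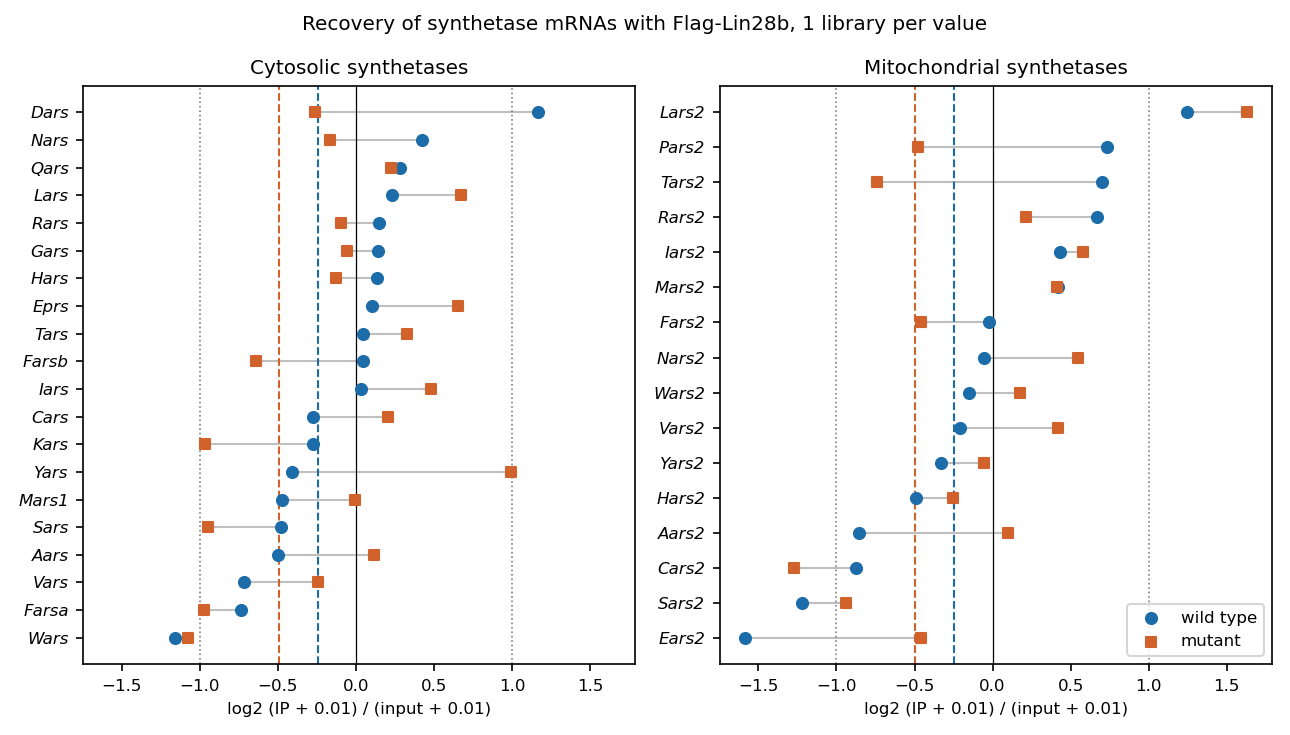
Log2 ratio of IP over input for the synthetase genes reported by name with wild-type and with mutant Lin28b (points, 1 library pair each), cytosolic and mitochondrial enzymes apart. The solid vertical line marks 0, dotted lines 2-fold and dashed lines the protein-coding medians of the constructs, in their colours, and grey bars join the values of a gene; Lars2 lies beyond 2-fold on the high side with both constructs and Wars on the low side with both.

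Gene span moves with recovery in these tables, so the synthetases were also set against genes of like span. Spearman's rho between genomic span and log2 ratio over 11260 protein-coding genes was 0.38 with the wild type and 0.54 with the mutant, and over the 37 members it was 0.22 and 0.27. These are correlations across genes of the same libraries and are given as a description. With protein-coding genes ranked by span and split into 5 classes, and each gene set against the median of its class, the synthetase median was 0.01 with the wild type and 0.59 with the mutant.

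Comparing the constructs, the difference of the log2 ratios, wild type minus mutant, had a median of -0.17 in synthetases and 0.27 in protein-coding genes. The wild-type ratio was the higher one in 43.2% of synthetases and in 62.0% of protein-coding genes. The wild-type ratio was at least 2-fold above the mutant ratio for 3 members (22.1% of protein-coding genes) and the mutant ratio at least 2-fold above for 2 (5.72%). The other 32 differed by less. After centring each table on its median over all genes, or within span classes, the counts became 2 and 3, because Pars2 fell under the threshold and Aars2 passed it. With a pseudocount of 1 they were 2 and 1. The signs of the ratios were opposite for 15 members: 8 lay above input with the wild type and below it with the mutant, and 7 the other way round. Of protein-coding genes 28.03% had opposite signs, 17.8% and 10.2% in these directions. These sign counts are for the ratios as deposited and depend on centring. Relative to the median of all genes, the mutant ratio of Nars turned from -0.17 to 0.43, so its signs became alike. That of Vars turned from -0.24 to 0.35, so its signs became opposite. Signs were not counted again on that scale.

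Tars2, Dars and Pars2 had the higher ratio with the wild type. Tars2 was at 37.4 FPKM in the IP and 23.0 FPKM in the input with the wild type, and at 18.6 and 31.1 FPKM with the mutant. It was 1.62-fold above input in one and 1.67-fold below in the other, a difference of 1.44 on the log2 scale. Dars was at 65.1 and 29.0 FPKM with the wild type and 39.8 and 47.7 FPKM with the mutant, a difference of 1.43. Pars2 was at 3.53 and 2.12 FPKM with the wild type and 2.35 and 3.28 FPKM with the mutant, a difference of 1.21. All 3 are class II enzymes, and in each the IP level was higher and the input level lower with the wild type. Relative to the median of all genes the mutant ratio of Tars2 stayed below 0, at -0.15, while those of Dars and Pars2 turned to 0.33 and 0.11.

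Yars and Ears2 had the higher ratio with the mutant. Yars was at 13.8 FPKM in the WT IP and 18.3 FPKM in the WT input, and at 53.9 and 27.1 FPKM with the mutant, a difference of -1.40. Ears2 was at 0.551 and 1.67 FPKM with the wild type and 1.74 and 2.40 FPKM with the mutant, a difference of -1.13. Both are class I enzymes. Yars also had the larger input level with the mutant, yet its IP level differed more.

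The cytosolic enzymes separated by class in this difference. Eprs, the fused glutamate and proline enzyme, was counted in class I alone, although its proline part is of class II. Of the 10 enzymes counted in class I, 8 had the higher ratio with the mutant, with a median difference of -0.46. Of 10 class II enzymes 8 had the higher ratio with the wild type, with a median of 0.36. Over protein-coding genes 62.0% had the higher ratio with the wild type, with a median of 0.27, so class II lay on the side of most genes. The grouping by class was examined with the values known, and it is a count of genes in 2 pairs of libraries and not a test. The median ratios were -0.12 with the wild type and 0.21 with the mutant in class I, and 0.04 and -0.22 in class II. After centring each table on its median over all genes, class II was at 0.05 and class I at -0.77, so relative to other genes class II lay near 0 and class I below it. Against genes of like span the medians were 0.13 and -0.63.

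Class I enzymes with the higher mutant ratio included Yars, Eprs, Cars, Vars, Mars1, Iars and Lars, and the class I genes on the other side were Rars and Qars, at 0.24 and 0.05. Class II enzymes with the higher wild-type ratio were Dars, Farsb, Kars, Nars, Sars, Hars, Farsa and Gars, from 1.43 down to 0.20, and those on the other side were Aars and Tars, at -0.61 and -0.28. In mitochondrial enzymes the classes did not lie on opposite sides: the median differences were -0.28 in class I and -0.21 in class II.

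**Figure D3:**
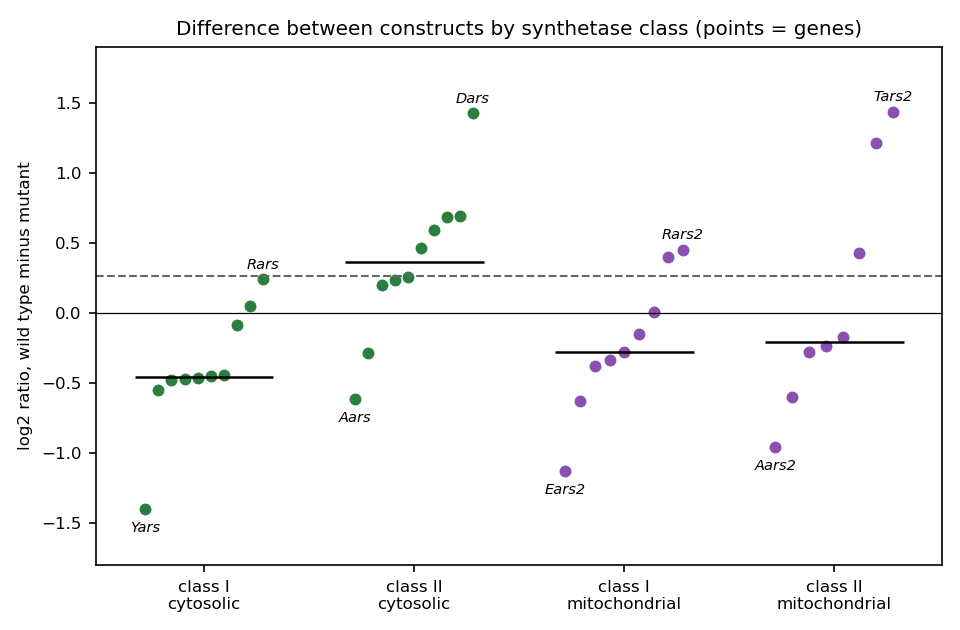
Difference of the log2 IP over input ratios, wild type minus mutant, for each synthetase gene (points), grouped by enzyme class and by cytosolic or mitochondrial enzyme, with the group median as a bar and the protein-coding median of 0.27 as a dashed line. Cytosolic class I has its median at -0.46 and cytosolic class II at 0.36, while both mitochondrial groups have medians below 0. Eprs, the fused glutamate and proline enzyme, is counted in class I alone.

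The multisynthetase complex was then set against the other cytosolic enzymes. Its 8 members in the set, Eprs, Iars, Lars, Mars1, Qars, Rars, Kars and Dars, had median log2 ratios of 0.12 with the wild type and 0.11 with the mutant. The 12 cytosolic enzymes outside it had medians of -0.34 and -0.15. Dars was the high member with the wild type, at 1.17, while Mars1, the methionine enzyme, was the low one, at -0.47. With the mutant Lars was the high member, at 0.67, and Kars the low one, at -0.97. The complex was thus no uniform group, and its range overlapped that of the other enzymes with each construct.

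In 14 pairs a cytosolic and a mitochondrial gene share the amino acid and the stem of their symbol. The members of a pair lay on the same side of input in 11 pairs with the wild type and in 5 with the mutant, and the median distance between their log2 ratios was 0.61 and 0.69. The counts of sides depend on centring. Relative to the median of all genes, Mars1 and Mars2 with the mutant came to the same side, at 0.59 and 1.01. With the wild type, Wars and Wars2 came to opposite sides, at -0.88 and 0.13. The pairs were not counted again on that scale, so the counts set no difference between the constructs. Close pairs with the mutant were Sars and Sars2, at -0.95 and -0.94, and Iars and Iars2, at 0.48 and 0.58. Others lay apart, and these examples on both sides were chosen after their values were seen. Lars2 was enriched with both constructs, while cytosolic Lars was at 0.23 and 0.67. Wars was more than 2-fold below input with both constructs, while Wars2 was at -0.15 and 0.18. Tars2 was at 0.70 and -0.74, while Tars was at 0.04 and 0.33.

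Peaks give a view of where on these genes IP reads stood above background. Peak folds are values of the authors, who called peaks in each IP by itself and on each strand. With the wild type 14 of 37 synthetases held a peak, against 29.4% of protein-coding genes. With the mutant 13 held one, against 21.9%. For cytosolic enzymes the counts were 11 and 8 of 20, and for mitochondrial enzymes 3 and 5 of 17. Higher genes held peaks more often: of protein-coding genes with at least 10 FPKM in both inputs, 38.8% held a wild-type peak and 28.2% a mutant peak. A peak in both lists was held by 8 members, in the wild-type list alone by 6 (Dars, Farsb, Gars, Hars, Rars and Tars2), in the mutant list alone by 5, Aars, Lars2, Mars1 and Vars2 among them, and in neither by 18. Over protein-coding genes the shares were 15.4% in both lists, 14.0% in the wild-type list alone, 6.501% in the mutant list alone and 64.1% in neither.

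The mutant list held more synthetase peaks, 60 against 31, and was the longer list over all genes, with 15931 peaks against 11912. Of its 60 synthetase peaks, 35 lay in Eprs, Lars and Yars. These 3 genes held 3 peaks in the wild-type list. Eprs had 15 mutant peaks and 1 wild-type peak, Lars 12 and 1, and Yars 8 and 1. Each of these 3 wild-type peaks overlapped a mutant peak by at least 1 base on the same strand. All 3 were counted in class I, and the ratio of each was also higher with the mutant.

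Dars and Tars2 showed the reverse. Dars had 6 wild-type peaks and no mutant peak, and Tars2 had 4 and none. The highest of the Dars peaks lay at chr1:128372157-128372425 on the minus strand (mm10 and GRCm38 coordinates), 84.0% of the way along the gene from its 5′ end, with a fold of 13.5. Another lay near the 5′ end at chr1:128413669-128413870, with a fold of 8.77. The Tars2 peak nearest the 3′ end was at chr3:95740077-95740412, 99.0% of the way along, with a fold of 2.38. Exons and untranslated regions were not assigned.

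Of the 31 wild-type synthetase peaks 14 overlapped a mutant peak (45.2%, exact 95% interval 27.3% to 64.0%), against 50.5% of wild-type peaks in protein-coding genes. Of the 60 mutant peaks 14 overlapped a wild-type peak (23.3%, 13.4% to 36.0%), against 37.1%. The intervals cover counting error alone, and peaks of 1 gene share their transcript. Summits in the last 10% of the gene made up 10 of 31 wild-type peaks (32.3%, 16.7% to 51.4%) and 10 of 60 mutant peaks (16.7%, 8.29% to 28.5%), against 37.2% and 29.5% in protein-coding genes.

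Shared peaks were found at like positions. The Rars2 peak had the same coordinates in both lists, chr4:34636788-34637024 on the plus strand, near the middle of the gene, with a fold of 15.7 in the wild-type list and 10.0 in the mutant list. Iars2 had 4 wild-type and 7 mutant peaks, and all 4 wild-type peaks overlapped mutant ones. Iars had 2 and 5, with 2 overlapping. An Iars peak at chr13:49714653 onwards started at the same base in both lists, with a fold of 9.07 in the wild-type list and 4.14 in the mutant list. Lars2, the member enriched with both constructs, had no wild-type peak and 1 mutant peak, at chr9:123462122-123462445, 99.7% of the way along the gene, with a fold of 2.32. Its enrichment in the gene tables thus came with 1 peak of low fold.

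**Figure D4:**
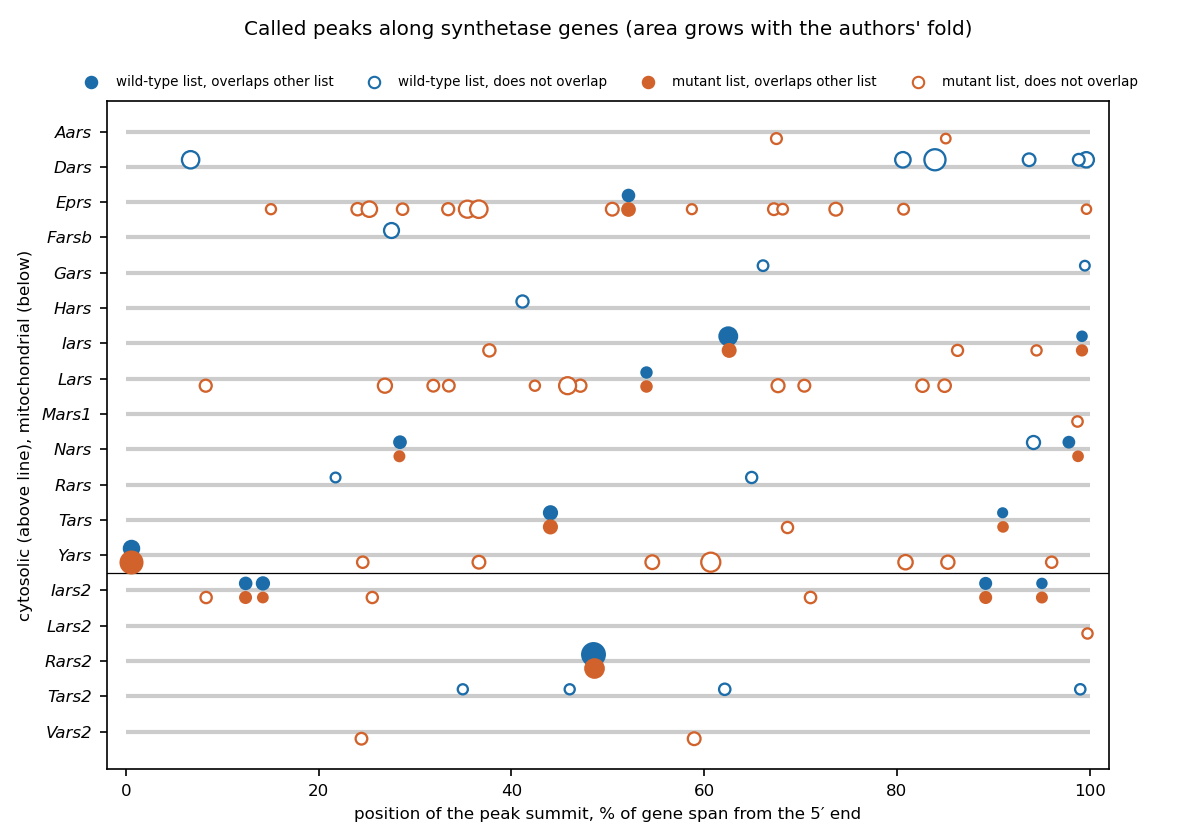
Position of each peak's summit along the gene, as percent of the span from the 5′ end, for the synthetase genes reported by name that hold a peak, with wild-type and mutant lists apart point area growing with the authors' fold and filled points overlapping a peak of the other list. Dars and Tars2 carry wild-type peaks only, and Eprs, Lars and Yars carry 35 of the 60 mutant peaks called in all members.

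The Yars peak at the 5′ end is shown because it is the strongest mutant synthetase peak, it is shared, and it lies in the promoter window already read. It spans chr4:129189801-129190004 in the wild-type list, with a fold of 6.47, and chr4:129189798-129190039 in the mutant list, with a fold of 14.4, on the plus strand. The 152 bases of the wild-type peak that lie in the window hold GGAG 4 times on the gene's strand. Of all windows, 65.8% hold GGAG at least once in their last 152 bases and 8.62% at least 4 times. The stretch chr4:129189847-129189876, with GGAG in capitals, is given here.
Yars, 5′ peak: tcggGGAGaGGAGgggacagacagaatcta

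Overlapping genes could bear on some of these values, and this was not tested. The labels name a stranded kit, but the strand setting of the counting was not given in the sources used here. An opposite-strand gene overlaps the span of 11 members. Mars1 overlaps Ddit3 by 68 bases. The Ddit3 input level was 5.61 FPKM with the wild type and 24.9 FPKM with the mutant, beside 24.02 and 43.0 FPKM for Mars1. Wars overlaps Wdr25 by 544 bases, Hars and Hars2 overlap each other by 198, and Yars overlaps C77080 by 30. Same-strand genes overlap Aars and Wars2. No peak on the opposite strand had its summit in a member.

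Genes of proteins that work with the synthetases were examined as separate lists. The scaffold genes of the multisynthetase complex, Aimp1, Aimp2 and Eef1e1, all lay below input, with log2 ratios of -0.76, -0.38 and -0.97 with the wild type and -0.93, -1.87 and -2.04 with the mutant. Aimp2 was at 7.90 FPKM in the MU IP and 29.0 FPKM in the MU input. None of the 3 held a peak. Of protein-coding genes 61.2% lay below input with the wild type and 68.8% with the mutant, and 64.1% held a peak in neither list. The median span of the 3 was 14.9 kb. Protein-coding genes of 8.26 to 17.1 kb had median log2 ratios of -0.47 and -0.84, and the part of span was not tested here. The enzymes of the complex overlapped them in range, with Mars1 at -0.47 with the wild type and Kars at -0.97 with the mutant.

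Factors that deliver charged tRNA to the ribosome had medians of -0.17 with the wild type and -1.43 with the mutant over 6 measured of 7. Over protein-coding genes the medians were -0.25 and -0.495. The factors have a median span of 11.1 kb. Protein-coding genes of 8.26 to 17.1 kb had medians of -0.47 and -0.84, and those up to 8.25 kb -0.84 and -1.55. The part of span in these values was not tested. Tsfm, the mitochondrial elongation factor Ts, was at -1.11 and -1.91. Eef1d and Eef1b2, subunits of the exchange factor of EF1A, were at -0.39 and 0.06 with the wild type and at -1.85 and -1.74 with the mutant. Tufm, mitochondrial EF-Tu, was at -0.89 and -1.12. Mitochondrial translation factors had medians of -0.05 with the wild type and -0.14 with the mutant over 7 genes. The mitochondrial synthetases had -0.05 and 0.10, so the medians were close with the wild type only. Mtif3, an initiation factor, was at -1.53 with the mutant and Mrrf, the recycling factor, at -1.35.

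Relatives of the synthetases outside the naming rule gave 4 measured of 5. Sepsecs, which makes selenocysteinyl-tRNA, was above input with both constructs, at 7.45 FPKM in the WT IP and 3.48 FPKM in its input, and at 10.3 and 3.78 FPKM with the mutant. Its log2 ratios were 1.096 and 1.45, and it held 5 wild-type and 6 mutant peaks. Pstk, the kinase that acts just before Sepsecs on the same tRNA, was at 7.41 and 10.9 FPKM with the wild type and 2.46 and 15.4 FPKM with the mutant, for log2 ratios of -0.56 and -2.64. The genes of mitochondrial transamidation and formylation had medians of -0.11 and -0.24 over 4 genes, and Gatc, a subunit of the amidotransferase, was at 0.09 and -1.76.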

How the data were processed

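The data were 2 gene tables and 2 peak lists from 4 libraries, 1 per group. MACS2 2.2.7.1, bedtools, HISAT2 2.1.0 and HOMER 4.11.1 are the tools named, with the builds mm10 and GRCm38, per the submitters' processing notes. The authors deposited 1 level per gene and library, read here as FPKM because the evidence per level scaled with length (Spearman rho 0.927 over 623 processed pseudogenes). The authors' deposited log2 ratio equals log2((IP + 0.01)/(input + 0.01)) to within 1.57e-09. The authors' deposited p-value and q-value compare 2 libraries, by a test not given in the sources used here. In the deposited peak lists the score serves display, the fold is a ratio at the summit, and the −log10 columns hold p and q. The control of the peak calling was not given in the sources used here.

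Ratios, 2-fold counts and medians were computed from the levels with pandas 2.3.3 and scipy 1.17.1 and checked on simulated data. No test was possible with 1 library per group. A peak was given to each member that held its summit on the same strand, and peaks overlapping by at least 1 base were called shared. All 37 members were counted, some single results are not reported here, and from each other list were named up to 4 genes with the highest absolute ratio. Other genes of the ATF4 list were named after their values were seen. The members and lists were chosen with earlier results of these data known, and the input comparison, the class split and the promoter motifs were chosen after seeing values. Alternatives were other pseudocounts, centring, span classes, level filters, folds and peak rules.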

Additional observations from a re-analysis of the deposited data

Results flagged for a closer look

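Tars2, the mitochondrial threonine enzyme, was above input in the wild-type IP and below input in the mutant IP by more than 1.5-fold each, with a difference of the log2 ratios of 1.44. It was the member with the highest such difference toward the wild type. With 1 library per group the difference was not tested.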

How the results depend on the processing

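No paired analysis was possible because each group has 1 library. With a pseudocount of 1, 1 member was at least 2-fold below input with the wild type and 1 with the mutant, and the mutant ratio was 2-fold higher for 1. After centring on the medians of all genes, the synthetase median was 0.26 with the wild type, with 1 member lower, and 0.54 with the mutant, with 10 enriched and 0 lower. Against genes of like span the medians were 0.013 and 0.59, with 4 enriched with the wild type, 8 enriched and 1 lower with the mutant, and cytosolic minus mitochondrial medians of -0.25 and 0.0067, against 0.09 and -0.18 as deposited. The shares of protein-coding genes past 2-fold after centring or within span classes were not counted. At 1.5-fold, 5 members were above and 7 below input with the wild type, and 4 and 8 with the mutant. A pseudocount of 0.1, a minimum level of 1, the authors' q-value, leaving out Kars and Gars, and the peak rules kept direction and count within 1.5 times. The cytosolic input shift held for 19 of 20 genes under every alternative run, with medians between 0.69 and 0.76 on the log2 scale, and these alternatives were chosen after seeing the data. Unknown depth limits every ratio of a low gene.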

Other observations

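Of the 30 measured genes of the ATF4 list, 22 lay below their input with the wild type and 23 with the mutant (73.3% and 76.7%), against 61.2% and 68.8% of protein-coding genes. Their median log2 ratio of IP over input was -0.68 with the wild type and -0.71 with the mutant. With the wild type 1 was at least 2-fold above input and 7 at least 2-fold below, and with the mutant 1 and 11. The protein-coding shares at least 2-fold below input were 18.8% and 32.5%, so these counts lie near the background. Asns was the one at least 2-fold above input with the wild type, at 92.4 FPKM in the IP and 45.4 FPKM in the input, with 8 peaks. With the mutant Asns was at 71.5 and 99.6 FPKM, with 0 peaks. Slc7a11, the cystine transporter, was the one at least 2-fold above input with the mutant, at 41.8 and 19.3 FPKM. Nupr1 and Ddit3 were the lowest with the mutant, at -2.50 and -2.48.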
